A study of Mus musculus with 48 samples.

Results

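The cytosolic ribosomal protein genes were taken from the RNA tables by symbol. Members were the Rpl and Rps genes numbered as ribosomal proteins, Rplp0, Rplp1 and Rplp2 of the stalk, Rpsa and Fau. The rule gave 84 of 20622 genes, 51 of the large and 33 of the small subunit. All 84 were found in the RNA tables and 83 had a transcript in the tables of ribosome-protected fragments (RPFs), the exception being Rpl10l. Livers of mice labelled male, aged 2 to 4 months and of at least 20 g, on a mixed C57BL/6 background, were compared in 4 genotypes: wild type (WT), Ctnnb1ex3/+ (B), R26-LSL-MYC (M) and Ctnnb1ex3/+; R26-LSL-MYC (BM). Every mouse, WT included, received AAV8.TBG.PI.Cre.rBG and livers were collected 4 or 10 days later. The TBG promoter drives Cre in hepatocytes, where Cre removes exon 3 of Ctnnb1, which leaves a stabilised β-catenin, and opens a stop cassette in front of MYC, while other liver cells keep both alleles closed. The virus dose is labelled as 2e+11 genome copies per mouse, whereas the treatment protocol gives that number per ml, so the dose per mouse is uncertain. Each genotype and day had 3 mice, and each mouse gave 1 RPF library and 1 cytoplasmic RNA library, 48 in all. In whole liver, fewer cells of a type and less RNA per cell cannot be told apart.

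Ribosomal proteins are the protein part of the small 40S and the large 60S ribosomal subunits, and a subunit needs nearly all of its proteins in equal number. Their mRNAs in vertebrates begin with a C followed by a run of pyrimidines, the terminal oligopyrimidine (TOP) tract, by which their translation is switched on and off together when growth signals through mTOR change. MYC raises the transcription of ribosomal protein genes and of factors that build ribosomes, and hepatocytes make large amounts of secreted protein, so ribosomes are a main cost of the tissue.

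The first transcribed bases of some members are shown because the TOP tract is the sequence that these mRNAs share and that the rule did not use. Each line gives 30 bases, from 5 before the annotated start to 24 after it, 5′ to 3′, from RefSeq promoters on GRCm38.p6, with the longest run of C and T in capitals. Rps12, Rpl14 and Rpl35 have large changes below, Rplp2, Fau and Rps6 have a known extra role, and the last 4 are paralogs or the parent of one.
Rps12: cggccaccgccggCCTTTTCCCCTgccgcc
Rpl14: TCTCTCTTCTCgctgagcgccgccaacatg
Rpl35: CTTTCCTCTTTCTCTCgaaccaggctgctt
Rplp2: TCTTCCTTTCgccgccggacgccgccgagg
Fau: caCTTCTTCCTCTTTCTTgactccatcttc
Rps6: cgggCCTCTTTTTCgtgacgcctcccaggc
Rps27: tcgCTCCTTTCCggcggtgacgacctccct
Rps27l: ccgccgCCTCTatcccggaagttgctgagg
Rpl22l1: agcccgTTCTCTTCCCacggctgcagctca
Rpl7l1: gcaagcgcagtagCTgaagcaccggaaaga
They lie at chr10:23787185-23787214 (minus strand) for Rps12, chr9:120571512-120571541 (plus) for Rpl14, chr2:39005107-39005136 (minus) for Rpl35 and chr7:141447646-141447675 (plus) for Rplp2. Fau is at chr19:6057942-6057971 (plus), Rps6 at chr4:86857343-86857372 (minus), Rps27 at chr3:90213624-90213653 (minus), Rps27l at chr9:66946081-66946110 (plus), Rpl22l1 at chr3:28805503-28805532 (plus) and Rpl7l1 at chr17:46782632-46782661 (minus). Each window spans the start of the gene's transcript and the upstream bases before it. The runs were 16 bases long in Fau and Rpl35, 11 in Rps12 and Rpl14, 10 in Rplp2, Rps6 and Rpl22l1 and 9 in Rps27, against 5 in Rps27l, for which the table holds 2 starts, and 2 in Rpl7l1. In Rps12 the run begins only at base 9 of the annotated transcript, counted from 1 at the start, and it holds none of the words searched below. Of the 84 members, 64 had an entry. Among them 14 (21.9%) had a C followed by 4 pyrimidines exactly at the annotated start, against 3.0% of all 27025 genes of the table. Pyrimidine words of 5 letters were searched on both strands. The first word was CTTTC, a C at either end of a run of T. Another word searched for was CTTCC, and the last word of the search was CTCTT. They can overlap each other. At least 1 of them stood on the transcribed strand of the window in 28 members (43.8%) and in 14.1% of all genes. On the opposite strand they stood in 20.3% of members and 15.9% of all genes. The median longest run was 6 bases for members and 4 for all genes. These matches describe letters near an annotated start and show no site.

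Library totals ran from 3254141 to 6540116 counts for RNA and from 9742197 to 14380713 for RPFs. The β-catenin labels were checked first: Glul, Axin2 and Lgr5, targets of β-catenin in the pericentral liver, were higher in B and BM than in WT in RNA and RPF at both days. Reads of Myc are counted on the mouse gene, and its RPFs were 43.6 to 164 CPM (counts scaled to a common library total) in M and BM against 2.43 to 35.3 in WT and B. Its RNA did not separate the groups, at 19.6 to 53.0 CPM in M and BM and 22.2 to 48.3 in WT and B, and passed in no comparison with WT. The summed RNA level of 7 hepatocyte markers was 94440 to 102300 CPM in WT at both days and 33530 to 89070 in the other genotypes, so the level of hepatocyte genes moved with genotype in the comparisons below, and its part in them was not tested. Markers of other cells differed between groups too. Summed RNA of 8 Kupffer cell and macrophage markers at day 4 was 271 to 337 CPM in WT, 204 to 241 in B, 179 to 539 in M, where mouse 2 was highest, and 123.5 to 147.8 in BM. At day 10 it was 272 to 326 in WT, 292 to 306.5 in B, 224 to 378 in M and 331 to 381 in BM. That of 6 endothelial markers at day 4 was 361 to 377 in WT, 328 to 348 in B, 248 to 336 in M and 227 to 266 in BM. At day 10 it was 398 to 427, 295 to 356, 272 to 314 and 249 to 304. That of 7 stellate cell and fibroblast markers, in the same order, was 406 to 439.8, 372 to 407, 299.9 to 367 and 215 to 281 at day 4, and 451 to 537, 235 to 306, 345 to 377 and 238 to 256 at day 10. The endothelial and stellate sums were thus lower than in WT in M and BM at both days and in B at day 10, with no overlap. For 5 cholangiocyte markers the sums were 80.2 to 185 CPM over all mice. For 7 blood markers they were 437 to 458.5 CPM in WT, 318 to 695 in B, 266 to 351 in M and 186.5 to 274 in BM at day 4, with M and BM below WT in every mouse. At day 10 they were 459.8 to 744, 710.1 to 884, 279.8 to 446 and 227 to 865.5 in the same order, with M below WT in every mouse. Between the WT days, the endothelial, stellate and blood sums were higher at day 10 in every mouse, while the hepatocyte, Kupffer cell and cholangiocyte sums overlapped. The part of these cells in the results below was not tested. None of the hepatocyte markers found was at 0 in any group. In 2 mice of day 10 the members stood apart from the rest of their group in RPF and in translational efficiency (TE), the ratio of RPF to RNA: mouse 3 of M and mouse 1 of BM. Their TE lay within the range of the WT and B mice of day 10, and that of the other M and BM mice below it. Counts of members called in these 2 groups against WT are given with and without them, and values of single genes with them.

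For each mouse, the median over members of the log2 difference from the WT day 4 mean summarises the level of the 80 members with RNA and RPF data. For RNA this median was 0.77, 0.83 and 0.62 in the 3 M mice of day 10 and 0.93, 1.04 and 1.08 in the BM mice. For RPF it was 0.37, 0.14 and 1.60 in M and 1.80, 0.91 and 1.19 in BM. In the WT mice of day 10 it was 0.70, 0.67 and 0.49 for RPF, and in the B mice 1.22, 0.73 and 0.39. For TE it was −0.40, −0.64 and 0.95 in M and 0.92, −0.11 and 0.12 in BM, against 0.86, 0.75 and 0.55 in WT and 0.99, 0.92 and 0.57 in B. The 2 mice were thus above every WT and B mouse of day 10 in RPF and among them in TE, whereas the other 4 M and BM mice were below all of them in TE. The 2 mice had the lowest RNA medians and the highest RPF and TE medians of their groups. The other TOP mRNAs had TE medians of −0.35, −0.53 and 1.14 in M and 1.14, −0.29 and 0.17 in BM. Mouse 1 of BM also had more Glul, Axin2 and Lgr5 RNA than the other BM mice of day 10, at 4720, 29.4 and 50.5 CPM against at most 2465, 9.17 and 17.2. Its blood markers summed to 227 CPM in RNA against 639.7 and 865.5 in the other BM mice of day 10.

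**Figure D1:**
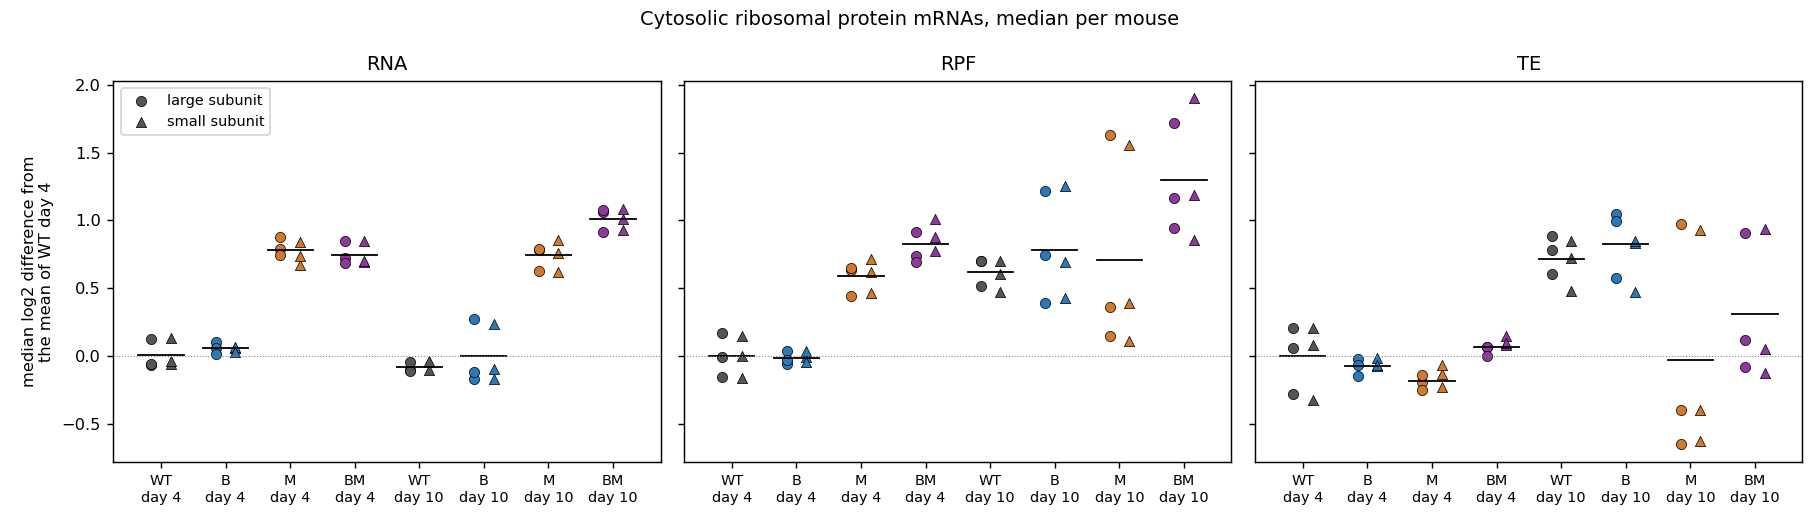
Median log2 difference from the mean of the WT day 4 mice over the large (circles) and small (triangles) subunit genes, 1 pair of symbols per mouse, for RNA, RPF and TE; the black bars are the group means over all 80 genes. RNA is higher in every M and BM mouse than in every WT mouse, whereas TE is higher in the WT and B mice of day 10 than in those of day 4, and 1 mouse each of M and BM at day 10 stands above the other 2 of its group.

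In WT livers of day 4, members took 1.54% ± 0.12 (SD, n = 3) of RNA counts and 0.58% ± 0.06 of RPF counts. In TPM, the share of transcripts scaled to the same total and per length, the member median was 408.1, and the highest were Rps27 at 1474 ± 222, Rpl41 at 1004 ± 16.8 and Rpl19 at 987.5 ± 90.6. Rpl41 and Rpl19 did not differ beyond their spread. The lowest were Rpl7l1 at 37.5 ± 3.92, Rpl10l at 24.4 ± 7.19 and Rpl3l, the muscle form of Rpl3, listed at 0. Rpl3l had at most 1 RNA count and 2 RPF counts in a library and Rpl39l, whose parent is the exit tunnel protein Rpl39, at most 1 RPF count. Rpl41, the shortest protein of the ribosome, has 25 codons in the counted transcript, fewer than the 30 that the authors left out, so it has no RPF value.

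TE per length (log2 RPF per counted codon over TPM, with the median of 9528 genes at 0) was low for nearly all members. The median member was at −1.75, the median percentile among all genes was 8.6, and 75 of 80 members lay below the median gene. The medians were −1.44 for the large and −1.90 for the small subunit. The lowest were Rps12 at −4.24 ± 0.51, Rps18 at −3.96 ± 0.52 and Rps27 at −3.94 ± 0.34, which did not differ beyond their spread. The highest were Rpl7l1 at 0.78 ± 0.14, Rpl10, which is added to the 60S subunit late, at 0.53 ± 0.56, and Rps15a at 0.10 ± 0.34. In the sequences above, the run of Rps27 spans the annotated start, that of Rps12 lies further inside, and Rpl7l1 has only a short one. The other genes printed there were at −0.46 (Rpl35), −0.64 (Rps27l), −0.68 (Rpl22l1), −1.33 (Rpl14), −1.72 (Fau), −1.83 (Rplp2) and −1.84 (Rps6). Whether the TE level goes with the run was not tested. These levels are a description of the WT livers, and the ranks of Rpl10 and Rps18 depend on how reads shared with copies were placed. Rpl10-ps3, which holds the coding words of Rpl10, had 77.3 RNA CPM and 0.0 RPF CPM, beside 159 and 335 for Rpl10. Counted with it, Rpl10 has a lower TE level. Rps18-ps5 and Rps18-ps6 had 51.5 and 95.7 RNA CPM and 48.2 and 0.0 RPF CPM, beside 217 and 24.9 for Rps18, which has a higher TE level when they are counted with it. For Rps27, the copy Rps27rt had 88.7 RNA CPM and 0.0 RPF CPM beside 250.4 and 25.3.

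**Figure D2:**
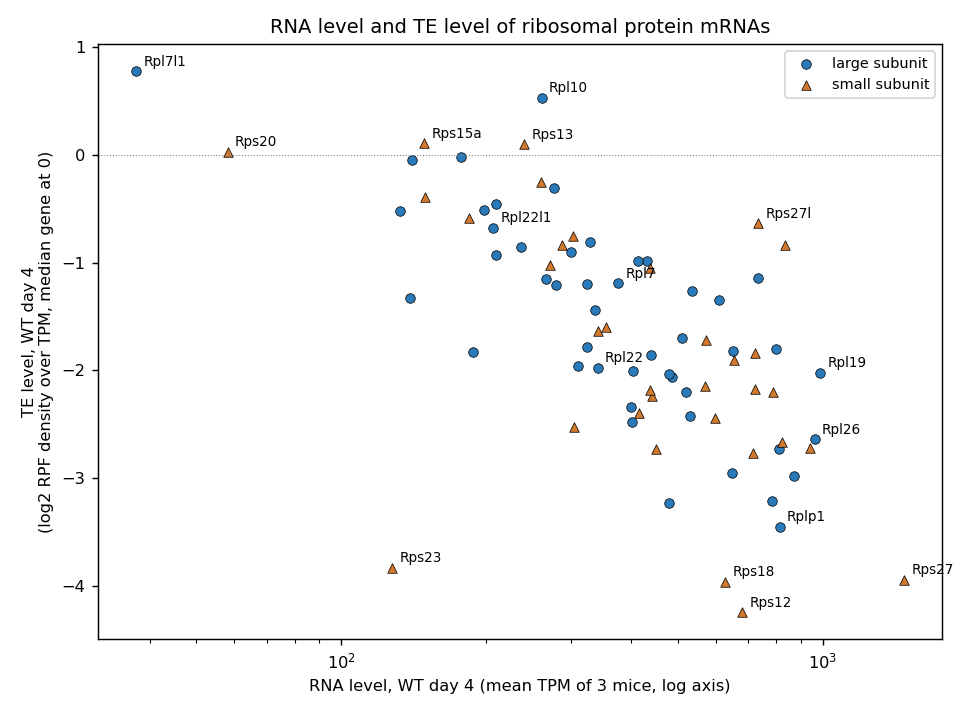
TE level against RNA level of the 80 ribosomal protein mRNAs in WT livers of day 4, each the mean of 3 mice, large subunit as circles and small subunit as triangles; the dotted line is the median gene. Most genes lie below the line, Rps12, Rps18, Rps27 and Rps23 lowest and Rpl7l1 highest; TPM is on both axes, so the downward slope is in part built in.

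In the RNA of day 4, M and BM livers had more of nearly every member than WT livers. For Rplp1, an acidic protein of the stalk that binds elongation factors, RNA was 231, 273 and 237 CPM in WT, 627, 670.0 and 563 in M, and 547, 677 and 542 in BM. For Rps12, a protein of the 40S head, it was 202, 245 and 232 CPM in WT, 551, 526 and 492 in M, and 569, 671 and 527 in BM. In both genes every M and BM mouse was above every WT mouse. Across the table, 77 of the 83 members tested rose in M (median log2 change 0.74) and none fell, where 13.5% of all genes rose. In BM, 78 rose (median 0.73) against 21.3% of all genes, and 1 fell against 20.6% of all genes. The largest rises in M were Rplp1, by 1.33 ± 0.10 (log2 ± SE, edgeR adjusted p = 5.94e-06), Rpl10a, by 1.25 ± 0.10, and Rps12, by 1.21 ± 0.10. In BM they were Rpl22l1, by 1.41 ± 0.09 (adjusted p = 6.72e-08), Rps12, by 1.38 ± 0.11, and Rplp1, by 1.25 ± 0.11. The member that fell in BM was Rpl10l, the retrogene of Rpl10 used in the testis, at 15.1, 26.8 and 16.3 CPM in WT and 11.8, 10.4 and 15.9 in BM, which overlap (log2 change −0.62 ± 0.22, adjusted p = 0.0468).

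The members that did not pass in M at day 4 were Rpl7l1, Rpl10l, Rpl39l, Rps27l, Rps27 and Rpl30. The first 4 are paralogs. Rps27 RNA was 213, 283 and 255 CPM in WT and 278, 264 and 296 in M (log2 change 0.16 ± 0.11, adjusted p = 0.345). Rpl30, a 60S protein that in yeast controls the splicing of its own mRNA, was at 307, 431 and 393 CPM in WT and 415, 393 and 457 in M (0.16 ± 0.12, adjusted p = 0.387). For both the groups overlap. Rps27l did pass in BM at day 4 (0.31 ± 0.09, adjusted p = 0.0205), while Rpl7l1, Rpl39l, Rps27 and Rpl30 did not.

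Ribosome-protected fragments of nearly every member were also higher at day 4. Rps12 RPFs were 17.0, 13.4 and 25.4 CPM in WT, 52.3, 38.9 and 52.6 in M and 66.4, 88.3 and 64.2 in BM, with no overlap between WT and either group. Of the 80 members tested, 75 rose in M (median 0.62) where 18.5% of all genes rose, and 77 rose in BM (median 0.84) where 26.2% of all genes rose. None fell in either. With all 24 mice in 1 fit, 29 rose in M and 62 in BM. Rps12 rose most in both, by 1.40 ± 0.21 in M (adjusted p = 0.00108) and by 2.00 ± 0.20 in BM (adjusted p = 1.72e-05). It was followed in M by Rpl39, by 1.12 ± 0.14, and Rpl12, part of the stalk base, by 1.12 ± 0.12. In BM, Rpl39 rose by 1.48 ± 0.15 and Rpl3, which lies at the peptidyl transferase centre, by 1.46 ± 0.17. The members that passed in neither RPF comparison were Rps27, Rpl7l1 and Fau. Fau, whose product is cut into a ubiquitin-like protein and eS30, had RPFs of 56.9, 53.2 and 64.1 CPM in WT and 62.0, 59.4 and 56.6 in BM (log2 change 0.05 ± 0.09, adjusted p = 0.664). Rps27l and Rpl10 passed in BM and not in M.

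At day 10 the RNA rise was again found in nearly every member. In M, 76 of 83 rose (median 0.80) where 8.53% of all genes rose, led by Rplp1, by 1.36 ± 0.11 (adjusted p = 0.000238), Rpl10a, by 1.26 ± 0.11, and Rpl22l1, by 1.18 ± 0.10. In BM, 80 of 83 rose (median 1.08) where 22.9% of all genes rose. None fell in either. Without mouse 3 of M, 77 rose, and without mouse 1 of BM, 82. Rps28, a small protein of the 40S subunit, was at 42.0, 47.9 and 45.9 CPM in WT, 93.6, 72.6 and 90.4 in M and 133, 157 and 162 in BM. The 3 groups do not overlap. It had the largest rise in BM, by 1.73 ± 0.13 (adjusted p = 5.54e-05), followed by Rpl22l1, by 1.60 ± 0.15, and Rpl10a, the protein of the L1 stalk, by 1.56 ± 0.13. The 3 that did not pass in BM were Rpl7l1, Rpl39l and Rpl10l. In all, 76 members rose in RNA in all 4 comparisons of M or BM with WT, which share the WT mice of each day, and 74 of these also rose in RPF in both day 4 comparisons. The share of all genes that rose in these comparisons together was not counted.

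RPFs of day 10 were counted with and without the 2 mice that stood apart. In M, 1 of 80 members rose (median 0.24) where 10.6% of all genes rose. That member was Rpl22l1, the paralog of Rpl22, at 61.1, 75.6 and 72.6 CPM in WT and 108, 94.1 and 170.1 in M (log2 change 0.83 ± 0.21, adjusted p = 0.0401). Without mouse 3 of M, 2 rose and 37 fell (median −0.33), and without WT mouse 1 or WT mouse 3 none passed. In BM, 52 of 80 rose (median 0.75) where 24.5% of all genes rose. Rpl3 rose by 1.26 ± 0.34 (adjusted p = 0.0235) and Rplp1 by 1.25 ± 0.25. For Rpl3, the RPF level was 320.2, 343 and 247 CPM in WT and 1156, 451 and 597 in BM, with no overlap and mouse 1 far above the others. Without mouse 1 of BM, 52 rose and 2 fell, and the median dropped to 0.40. Leaving out WT mouse 1, 2 or 3 gave 32, 32 and 25 members that rose. The 10.6% and 24.5% of all genes are from the fits with every mouse of both groups. No share is given for the fits with a mouse left out.

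**Figure D3:**
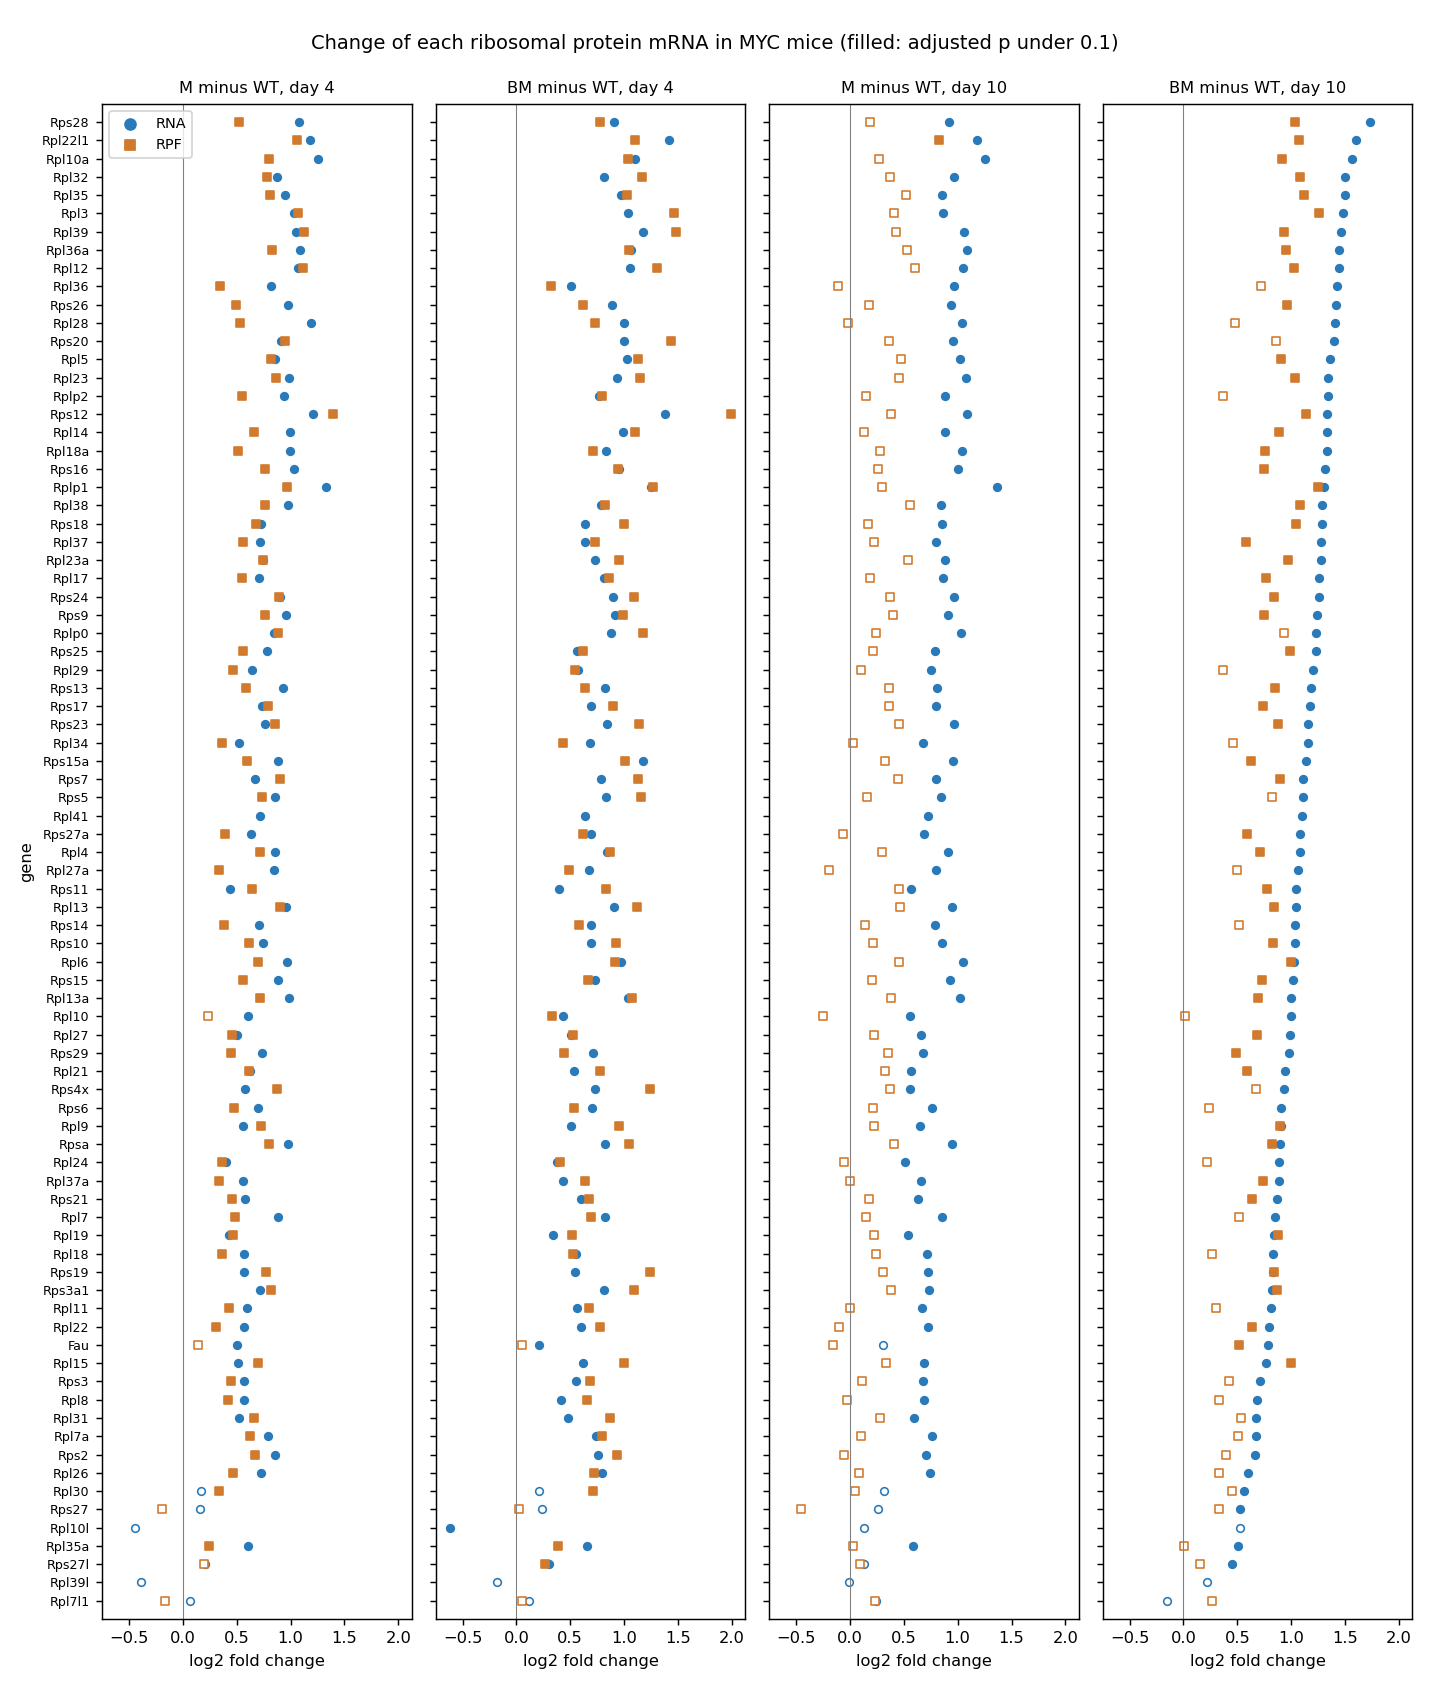
Fitted log2 fold change of each member tested and reported in RNA (blue circles) and RPF (orange squares) for M and BM against WT at day 4 and day 10, with filled symbols where the adjusted p is under 0.1; genes are in the order of their RNA change in BM at day 10. RNA symbols lie right of 0 and are filled for nearly all genes in the 4 panels, and Rpl7l1 and Rpl39l come lowest in the order; RPF symbols at day 10 in M are open for all genes but Rpl22l1.

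TE, which sets RPF against RNA in the same model, changed in few members by genotype. In M at day 4 none passed (median −0.16, 13 at an unadjusted p under 0.05, 0 by DESeq2), where 0.98% of all genes passed in either direction. With the RNA and RPF libraries of a mouse joined as a block, 7 fell. In BM at day 4, 1 member rose, where 1.78% of all genes rose (median 0.07). It was Rps19, a 40S head protein mutated in Diamond-Blackfan anaemia. Its log2 ratio of RPF to RNA was −2.56, −3.22 and −2.52 in WT and −2.06, −2.03 and −2.17 in BM, without overlap. The change was 0.69 ± 0.17 (adjusted p = 0.0640), and it did not pass without WT mouse 2 or any 1 of the BM mice, nor with all 24 mice in 1 fit. With the block, 11 members rose in BM. DESeq2 called 2.

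At day 10, TE changed in no member in M (median −0.59, 6 at an unadjusted p under 0.05), where 0.0% of all genes passed in either direction, and in none in BM (median −0.32, 14 at an unadjusted p under 0.05), where 0.259% of all genes passed. With the block, 4 members fell in BM, and DESeq2 called 1 lower in BM and none in M. The fitted TE change was below 0 in all 80 members in M and in 74 of 80 in BM, while the median change over all genes was 0.006 and 0.055. Members of a mouse moved together, so these are not 80 separate results. Without mouse 3 of M, 73 members fell (median −1.21). Without mouse 1 of BM, 66 fell and 1 rose (median −0.73). Each of these counts leaves out the mouse with the highest value of its group, which was chosen for that value. No share of all genes is given for these fits, so the counts cannot be set beside one.

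When the 2 days of WT livers were compared, RPF and TE of members passed the test and RNA did not, but these calls depended on the fit and, for TE, on single mice. WT RNA of day 10 against day 4 changed in no member (median −0.07, 5 at an unadjusted p under 0.05, 0 by DESeq2), where 2.32% of all genes passed in either direction. RPFs rose in 65 of 80 members (median 0.64) where 2.17% of all genes rose, and TE rose in 42 of 80 (median 0.70) where 0.481% of all genes rose. None fell in RPF or TE. With all 24 mice in 1 fit neither RPF nor TE passed in any member. The TE count was 0 without mouse 1 of either day, 1 without mouse 2 of day 4, and 12 and 11 without mouse 2 or mouse 3 of day 10. Joined in a block by mouse, the libraries gave 67 members that rose in TE, and DESeq2 gave 59. The RPF count stayed between 49 and 64 when single mice were left out. For Rps12, RPFs were 67.3, 56.4 and 39.7 CPM at day 10 against 17.0, 13.4 and 25.4 at day 4, whereas RNA was 233, 229 and 216 CPM against 202, 245 and 232. The RPF values do not overlap and the RNA values do. Its TE rose by 1.55 ± 0.27 (adjusted p = 0.0250). Rps20, a 40S head protein, had a log2 RPF to RNA ratio of −1.23, −1.49 and −1.63 at day 10 against −3.00, −3.21 and −2.45 at day 4, and rose by 1.41 ± 0.23. Rpl14 was at 0.19, 0.21 and 0.20 against −0.92, −1.60 and −0.75, and rose by 1.31 ± 0.19. In 73 of 80 members the 3 mice of day 10 were all above the 3 of day 4, as in 6.41% of all genes tested.

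Of the 42 TE calls, 29 of 47 were in the large and 13 of 33 in the small subunit, and all 42 were also called in RPF. Of the members listed for an extra role or a marked place, those called were Rplp2 of the stalk (1.14 ± 0.22), Rps27a, made as a fusion with ubiquitin (0.89 ± 0.15), Rpl5 and Rpl11 of the 5S particle that can bind MDM2 (0.85 ± 0.14 and 0.69 ± 0.13), Rps6, the S6 kinase substrate (0.59 ± 0.13), Rplp1, Rps19, Rps3 and Rpl13a. Those not called were Rplp0, Rpsa, Fau, Rpl10, Rpl3, Rps14, Rpl26 and Rpl38, with fitted changes of 0.35 to 0.93, and Rpl41 was not tested. Paralogs were at the other end. The fitted TE change was −0.20 ± 0.14 for Rpl7l1, 0.09 ± 0.15 for Rpl22l1 and 0.10 ± 0.16 for Rps27l, and none of the 3 passed in RPF either. Their parents Rpl7, Rpl22 and Rps27 had TE changes of 0.56 ± 0.14, 0.88 ± 0.13 and 0.70 ± 0.18, of which only Rpl22 passed.

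Besides the members, 8 genes passed in TE between the WT days. The 7 higher were Eef1a1, Eef1b2, Tpt1 and Npm1, which have TOP mRNAs, Rps18-ps5, a copy of Rps18, and Zc3h14 and Eif2a. Noct, a gene with a circadian rhythm in liver, was lower, by 2.15 on the log2 scale. These names were given after their values were seen. Each day had its own WT mice, and library batches are not given in the sources used here, so day and batch cannot be told apart.

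**Figure D4:**
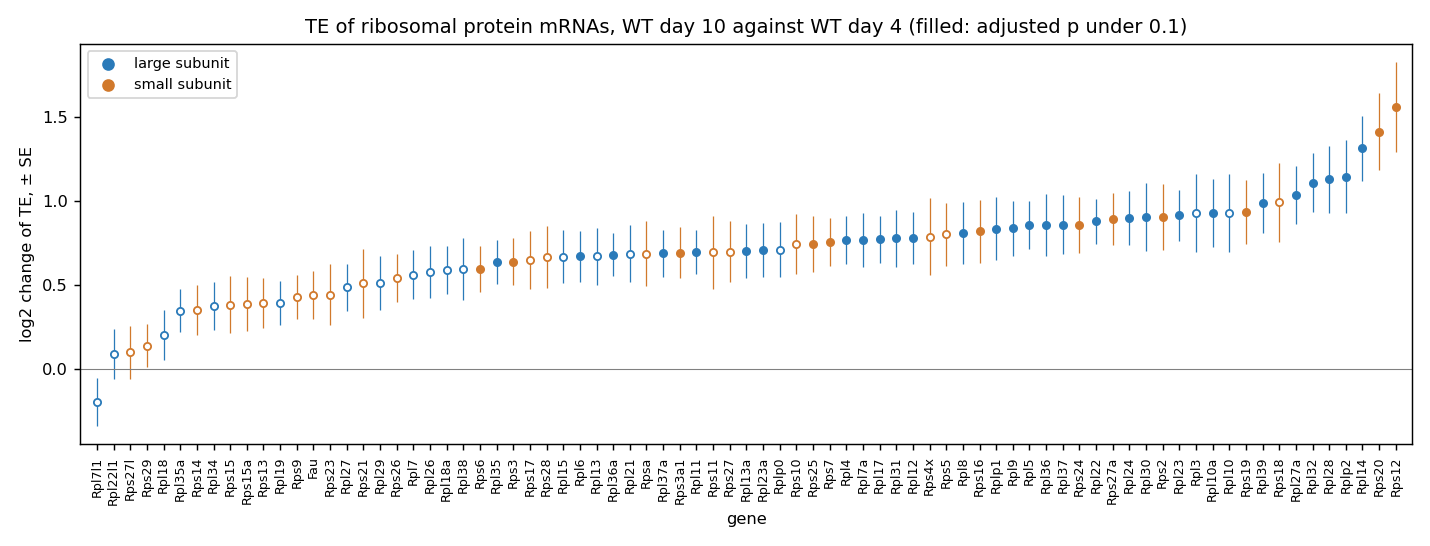
Fitted log2 change of TE with its SE for each member tested and reported in WT livers of day 10 against day 4, large subunit in blue and small subunit in orange, filled where the adjusted p is under 0.1. Only Rpl7l1 lies below 0, Rpl22l1 and Rps27l come next, and Rps12, Rps20 and Rpl14 are highest, at 1.55, 1.41 and 1.31.

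The Ctnnb1ex3/+ allele alone moved few members. In B at day 4 no member passed in RNA (median 0.05, 1 at an unadjusted p under 0.05), RPF (−0.02, 2 at an unadjusted p under 0.05) or TE (−0.07, 2 at an unadjusted p under 0.05). Of all genes, 8.14% passed in RNA, 12.5% in RPF and 0.0488% in TE in either direction. DESeq2 called none of them in RNA, RPF or TE. At day 10 none passed in RNA (median 0.10, 4 at an unadjusted p under 0.05), where 15.6% of all genes passed, and none in TE (median 0.10, 0 at an unadjusted p under 0.05), where 0.047% passed. DESeq2 called none in RNA or TE at day 10. In RPF, 1 member rose (median 0.20) where 13.1% of all genes rose. It was Rpl13a, with a log2 change of 0.45 ± 0.16 (adjusted p = 0.0862) and overlapping groups. Rpl13a shares 92.0% of its 30-base words of coding sequence with another gene, and of the 69 members without such sharing 0 rose. The RPF medians of the B mice of day 10 were 1.22, 0.73 and 0.39, and without mouse 3, the lowest, 37 members rose. Without WT mouse 1 or 3 or B mouse 1 or 2, or with all 24 mice in 1 fit, none did, while 4 rose in RNA in that fit. The 13.1% of all genes is from the fit with every mouse of both groups, and no share is given for these alternatives. With the block by mouse, 1 member rose and 1 fell in TE at day 10.

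BM was set against M to compare livers with and without the Ctnnb1 allele where MYC is present. Against M at day 4, BM livers had 2 members higher in RNA, where 14.6% of all genes rose, and 2 lower, where 15.9% fell (median −0.03). The higher were Rps15a, by 0.29 ± 0.10 (adjusted p = 0.0462), and Rpl22l1, by 0.23 ± 0.09 (adjusted p = 0.0901). The lower were Rpl36, by −0.31 ± 0.09 (adjusted p = 0.0299), and Fau, by −0.29 ± 0.08 (adjusted p = 0.0211). Fau RNA was 184, 204 and 186 CPM in BM against 248, 232 and 224 in M, below in every mouse. With all 24 mice in 1 fit none of these 4 passed, nor did any other member. Leaving out single mice gave 2 to 12 called in RNA, the most without BM mouse 2, when 1 was higher and 11 lower.

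In RPF, 35 of 80 members were higher in BM than in M at day 4 (median 0.21), where 18.8% of all genes were. With all 24 mice in 1 fit none passed. Rps12 led at 0.59 ± 0.15 (adjusted p = 0.0158), then Rps20 at 0.48 ± 0.14 and Rpl22 at 0.46 ± 0.10 (adjusted p = 0.00704). Rpl22 RPFs were 66.6, 79.4 and 66.0 CPM in BM against 50.4, 46.4 and 55.3 in M. Without M mouse 2 the count was 16 and without BM mouse 2 it was 19. For TE no member passed (median 0.24, 25 at an unadjusted p under 0.05, 0 by DESeq2), where 0.0943% of all genes passed, and 27 were higher with the block by mouse.

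At day 10, RNA was higher in BM than in M in 37 of 83 members (median 0.32), where 16.3% of all genes were higher. Rps28 was higher by 0.83 ± 0.14 (adjusted p = 0.00530), Rpl35 by 0.66 ± 0.12 and Rpl3 by 0.64 ± 0.14. Rpl35 RNA was 386, 408 and 434 CPM in BM against 267, 269 and 247 in M, without overlap. This count fell to 13, 15 or 10 higher without M mouse 1, 2 or 3 and to 6 or 9 without BM mouse 2 or 3, and it was 56 without BM mouse 1 and 16 with no filter on low counts. In RPF, 1 member was higher (median 0.46), where 16.0% of all genes were: Rpl19, at 431, 428 and 460.0 CPM in BM against 235, 209.6 and 387 in M (0.66 ± 0.23, adjusted p = 0.0844). Without M mouse 3, 56 members were higher in RPF, without BM mouse 1, 2, and without any other single mouse, 0. It was 25 with all 24 mice in 1 fit. No member passed in TE (median 0.17, 0 at an unadjusted p under 0.05, 0 by DESeq2), where 0.142% of all genes passed.

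Whether an effect differed between the days was tested directly. For B no member passed in RNA (median 0.05, where 9.31% of all genes passed), RPF (0.22, 17.2%) or TE (0.20, 0.0%), with 0, 2 and 0 members at an unadjusted p under 0.05 and none by DESeq2. For M none passed in RNA (0.06, 1.2%), RPF (−0.37, 1.18%) or TE (−0.44, 0.0%), with 0, 1 and 0 members at an unadjusted p under 0.05 and none by DESeq2. Without M mouse 3 of day 10, the M effect was lower at day 10 in 74 members and higher in 1 in RPF, and lower in 52 in TE. Without B mouse 3 of day 10, the B effect was higher at day 10 in 15 members in RPF. Each of these fits leaves out an extreme mouse, as M mouse 3 had the highest and B mouse 3 the lowest RPF median of its group. No share of all genes is given for them.

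For BM, 30 of 83 members had a higher signed RNA effect at day 10 than at day 4 (median 0.35), where 13.4% of all genes had, 23 of 50 in the large and 7 of 33 in the small subunit. Rpl36, a 60S protein, stood at 139, 155 and 139 CPM in BM at day 4 and 237, 241 and 284 at day 10, while WT had 98.0, 113 and 93.8 at day 4 and 102, 84.5 and 95.5 at day 10. The difference of its effects was 0.91 ± 0.17 (adjusted p = 0.00154). For Rps28 it was 0.82 ± 0.19 (adjusted p = 0.00809), and for Rpl10l it was 1.13 ± 0.42 (adjusted p = 0.0677), from −0.62 at day 4 to 0.52 at day 10, where it was not called. The count was 14 to 18 without WT mouse 2 or BM mouse 1 or 3 of day 4, or without WT mouse 1 or BM mouse 2 or 3 of day 10, and 51 without BM mouse 1 of day 10. It was 17 with no filter on low counts. The calls of Rpl36 and Rps28 held without any single mouse, whereas that of Rpl10l was lost without WT mouse 2 or BM mouse 1 or 2 of day 4, or without WT mouse 1 or BM mouse 2 or 3 of day 10. In RPF, Fau and Rpl19 had a higher effect at day 10 (0.47 ± 0.17 and 0.37 ± 0.14), 2 members where 17.2% of all genes had. None passed with all 24 mice in 1 fit, or without mouse 3 of WT at either day, mouse 3 of BM at day 10 or any 1 BM mouse of day 4. Without BM mouse 1 of day 10, 4 were higher and 49 lower in RPF, and 1 higher and 61 lower in TE. The TE difference passed in no member (median −0.45, 6 at an unadjusted p under 0.05, 0 by DESeq2), where 0.31% of all genes passed.

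Both subunits were counted side by side. In M RNA at day 4, 46 of 50 large and 31 of 33 small subunit genes rose, with median log2 changes of 0.76 and 0.74. In BM RNA at day 10 it was 47 of 50 and 33 of 33, at 1.07 and 1.09. In BM RPF at day 4 it was 46 of 47 and 31 of 33, at 0.80 and 0.93. For TE between the WT days the medians were 0.77 and 0.69. No test of the difference between the subunits was run.

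Paralogs were compared with their parents in each mouse. Ratios of paralog to parent are given as log2 of CPM, which is not per length, so only their change between groups is read. Rpl22l1 over Rpl22, a pair of 60S RNA-binding proteins, was at −1.16, −1.22 and −1.19 in WT RNA at day 4, −0.48, −0.66 and −0.60 in M and −0.32, −0.32 and −0.49 in BM. At day 10 it was −1.08, −0.81 and −0.90 in WT, −0.55, −0.52 and −0.38 in M and −0.38, −0.06 and 0.02 in BM. The ratio was higher in every M and BM mouse than in every WT mouse of its day. In RPF at day 4 it was 0.65, 0.44 and 0.33 in WT and 1.25, 1.25 and 1.17 in M. Between the WT days it went the other way in RPF, to −0.27, 0.01 and 0.09 at day 10.

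Rpl7l1 over Rpl7 fell in RNA from −2.46, −2.52 and −2.38 in WT at day 4 to −3.28, −3.27 and −3.25 in M and −3.09, −3.37 and −3.02 in BM, since Rpl7 rose by 0.88 ± 0.09 in M and Rpl7l1, a nucleolar relative of Rpl7 with a role in ribosome assembly, was at 0.07 ± 0.09. Its own RNA was 61.0, 66.1 and 63.1 CPM in WT, 69.4, 63.7 and 66.4 in M and 71.7, 65.0 and 68.6 in BM. Those values overlap. The ratio of Rps27l, a target of p53, over Rps27 stayed near 0 in RNA in all groups, with values of −0.46 to 0.29 over the 24 mice. In RPF it was 2.34, 2.54 and 2.05 in WT at day 4 and 1.47, 1.41 and 1.75 at day 10. Rpl36al, a retrocopy of Rpl36a that the rule does not include, fell against Rpl36a from 0.33, 0.44 and 0.29 in WT RNA at day 4 to −0.53, −0.62 and −0.70 in M. In 90 tests of such ratios, the exact two-sided permutation test over 3 against 3 mice could not go below p = 0.1, which is 0.209 when adjusted over the tests.

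The ratio of Rpl10l over Rpl10 in RNA was −3.17, −2.97 and −3.00 in WT at day 4 and −4.28, −4.24 and −3.71 in M. For Rpl39l over Rpl39 it was −3.87, −2.71 and −2.90 against −4.78, −4.46 and −4.34. Both were lower in every M mouse. Neither Rpl10l nor Rpl39l rose in any of the 4 comparisons, while their parents rose in all 4. Rpl3l had too few counts for a ratio to Rpl3.

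**Figure D5:**
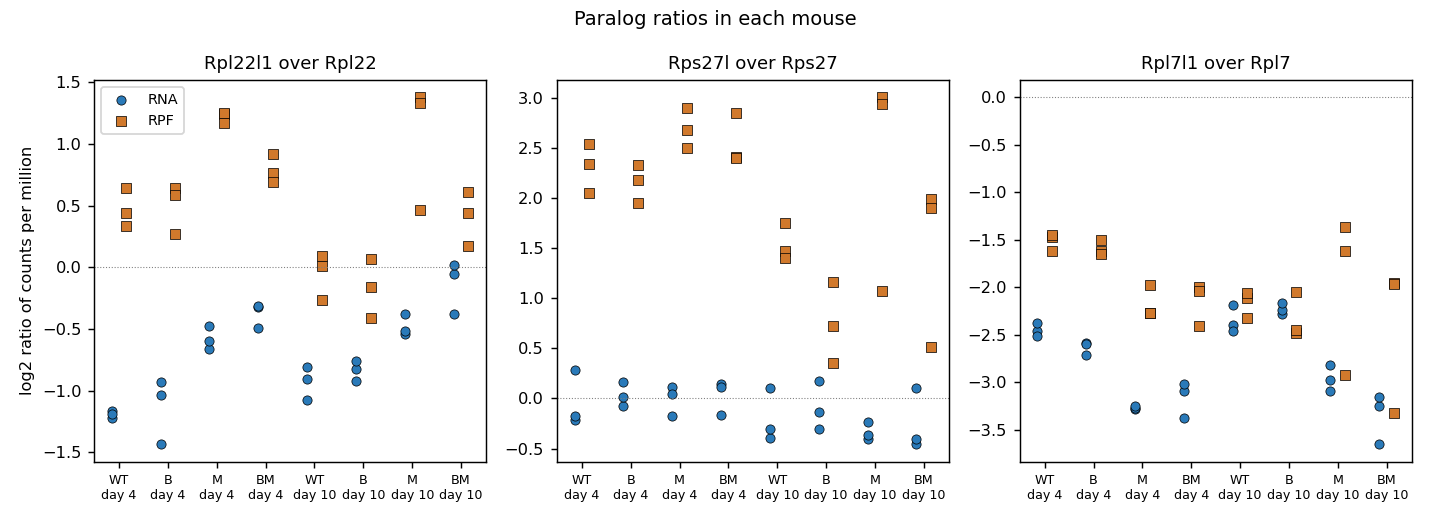
Log2 ratio of paralog to parent CPM in each mouse for Rpl22l1 over Rpl22, Rps27l over Rps27 and Rpl7l1 over Rpl7, RNA as blue circles and RPF as orange squares, 3 mice per group. The Rpl22l1 ratio in RNA is above that of WT in all M and BM mice of the same day, the Rps27l ratio in RNA stays near 0 in all groups, and the Rpl7l1 ratio in RNA is lower in M and BM.

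Members known for work outside the ribosome, or for a marked place in it, were among those that rose. At day 4 in M, RNA rose by 0.84 ± 0.09 for Rplp0, the stalk base, by 0.94 ± 0.15 for Rplp2, and by 0.97 ± 0.09 for Rpsa, which also serves as laminin receptor. It rose by 0.85 ± 0.10 for Rpl5 and by 0.60 ± 0.09 for Rpl11. For Rps6 the rise was 0.70 ± 0.10, for Rps3, which also takes part in DNA repair, 0.57 ± 0.09, and for Rps27a 0.63 ± 0.10. Rpl13a, Rps19 and Rps14 rose by 0.98 ± 0.09, 0.57 ± 0.10 and 0.70 ± 0.09, and Rpl26, Rpl38 and Rpl41 by 0.72 ± 0.10, 0.97 ± 0.13 and 0.71 ± 0.09. Fau and Rpl10 rose by 0.50 ± 0.09 and 0.60 ± 0.15. In BM at day 4 the RNA of Rplp0 rose by 0.88 ± 0.10, that of Rpsa by 0.83 ± 0.10, that of Rps6 by 0.70 ± 0.09 and that of Fau by 0.21 ± 0.09.

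Rps6 shows the middle of the list. Its RNA was 462, 493 and 467 CPM in WT at day 4, 839.5, 700.4 and 758 in M and 755, 788 and 772 in BM, all above WT. RPFs were 203, 208 and 240.5 CPM in WT, 312, 278 and 298 in M, and 303, 324 and 302 in BM. The RPF to RNA ratio on the log2 scale was −1.18, −1.24 and −0.96 in WT and −1.43, −1.33 and −1.35 in M, lower in every M mouse, and the TE change of −0.22 ± 0.13 did not pass (adjusted p = 0.813).

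Of the members, 12 share over 10% of their 30-base words of coding sequence with the counted transcript of another gene: Rpl10 and Rps27 share 100.0%, Rpl9, Rpl13a, Rpl35, Rps18, Rps10 and Rplp2 81.0% to 94.5%, and Rpl21, Rps27a, Rpl41 and Rpl36a 25.3% to 67.2%. RSEM divides RNA reads that match several transcripts among them by an estimate. How such RPF reads were placed is not given in the sources used here, so the values of these 12 are uncertain. Without these 12, 66 of 71 members rose in RNA in M at day 4, 68 of 71 in BM at day 10, 67 of 69 in RPF in BM at day 4, and 36 of 69 in TE between the WT days.

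Other mRNAs with a TOP start, a list of 17 translation and related factors, were counted beside the members. In M at day 4, 13 of 17 rose in RNA (median 0.40), beside 13.5% of all genes, from Tpt1 at 0.24 to Eef1b2, a guanine exchange factor of elongation, at 1.04, with Rack1 of the 40S subunit at 0.79 and Npm1, a nucleolar chaperone, at 0.79. In BM at day 10, 15 of 17 rose (median 0.71), beside 22.9% of all genes, with Npm1 at 1.65 and Eef1b2 at 1.44. Between the WT days, 10 of 16 rose in RPF (median 0.57), beside 2.17% of all genes, with Eef2 at 0.98 and Eef1a1 at 0.96, and 4 of 16 in TE (median 0.71), beside 0.481%. TE rose in 3 of 16 in BM at day 4 (median 0.17), beside 1.78% of all genes, which were Hnrnpa1 at 1.76, Eef1g at 0.99 and Nap1l1 at 0.62. Hnrnpa1, an RNA-binding protein, also rose in TE in M at day 4, by 0.88, the 1 of 16 that did, where 92 of 10405 genes rose.

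Chaperones that carry single ribosomal proteins rose in part. In BM at day 4, 5 of 10 rose in RNA (median 0.41), beside 21.3% of all genes, and 8 of 10 in RPF (median 0.35), beside 26.2%. Grwd1, the chaperone of Rpl3, rose in RPF by 1.24 and Rpf2 of the 5S particle by 0.88. In BM at day 10, 6 of 10 rose in RNA, beside 22.9% of all genes, and 1 fell, where 2541 of 11125 genes fell, the latter being Pdcd2l, a relative of the Rps2 chaperone Pdcd2, at −0.93, while Rpf2 was at 1.39 and Grwd1 at 1.23. In M at day 4, Grwd1 and Rpf2 alone rose in RNA, by 0.58 and 0.56, beside 13.5% of all genes. Between the WT days none of the 10 passed in RNA, RPF or TE, 0 at an unadjusted p under 0.05. Mitochondrial ribosomal proteins, 78 genes for the other ribosome of the cell, rose in 18 and fell in 1 in RNA in M at day 4 (median 0.19), where 13.5% of all genes rose and 1146 of 11173 fell, and in the WT day comparison of TE none of 77 passed (median 0.03, 3 at an unadjusted p under 0.05). In their RPFs at day 4, 31 of 77 rose and 1 fell in M, where 18.5% of all genes rose and 1637 of 11115 fell. In BM, 40 of 78 rose and 2 fell, where 26.2% rose and 2809 of 11375 fell. In BM RNA at day 10, 26 of 78 rose and 10 fell, where 22.9% of all genes rose and 2541 of 11125 fell.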

How the data were processed

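RNA was extracted from the cytoplasmic lysates that also gave the ribosome footprints of the same 24 livers. RPF reads were trimmed (Cutadapt), cleared of rRNA and tRNA, mapped with BBmap to 1 transcript per gene (GENCODE vM27, GRCm39) and collapsed by UMI, and the authors deposited raw counts per coding sequence that leave out 20 codons at the start and 10 at the end. For RNA they used Bowtie2 and RSEM and deposited expected counts and TPM per isoform, which were summed here per gene, the expected counts then rounded. Counts were fitted with edgeR 4.0.16 (TMM within library type, filterByExpr, quasi-likelihood F test, Benjamini-Hochberg over all genes, adjusted p under 0.1) on the mice of each comparison. TE was the interaction of group and library type, and an SE is the absolute log2 change over the square root of F. CPM use TMM factors of the 24 libraries. The RNA and RPF libraries of a mouse are paired by the animal (their deviations from group means correlated at 0.34 to 0.718), while equal mouse numbers across groups pair nothing. Labels do not tie mice to litters or library batches. Precision is set by 3 mice a group. Named genes were the 3 largest non-overlapping calls each way, paralogs, members with extra roles, extremes of level and called list genes. Members and lists were chosen with earlier results of these data known. Alternatives were DESeq2 1.42.0, other scalings and filters, a block, 1 fit of all mice and leaving out each mouse. Shares of all genes belong to the main fits, and none is given for an alternative. The fitting steps were tested on simulated data. Values of 1 member are not reported here, though counts and medians over members include it.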

Additional observations from a re-analysis of the deposited data

Results flagged for a closer look

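In BM against WT, the effect itself was tested for a difference between day 10 and day 4. The signed effect was higher at day 10 in 30 of 83 members in RNA, where it was in 13.4% of all genes, and in 2 of 80 in RPF, where it was in 17.2% of all genes, a larger share than among members. Those named by size in RNA were Rpl10l (difference 1.13, with an effect of −0.62 at day 4 and one of 0.52, not called, at day 10), Rpl36 (0.91) and Rps28 (0.82), and in RPF Fau (0.47) and Rpl19 (0.37). These calls passed the test of the difference in edgeR, and the report gives their errors. Those of Rpl36 and Rps28 held without any single mouse, and those of Rpl10l, Fau and Rpl19 were each lost without some.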

How the results depend on the processing

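Other size factors, TMM without the members and RNA of the counted transcript alone left every count of called members within 1.5 times. With all 24 mice in 1 fit the counts were 29 in M RPF and 0 in BM TE at day 4; 4 in B RNA, 0 in B RPF, 2 in M RPF and 2 in BM TE at day 10; 0 in RPF and 0 in TE between the WT days; 0 in RNA and 0 in RPF for BM against M at day 4 and 25 in RPF at day 10; and 0 in RPF for the BM difference between days. With the replicate block, which joins the libraries of a mouse in TE and only equal numbers in RNA and RPF, they were 7 in M TE, 11 in BM TE, 22 in BM against M RPF and 27 in TE at day 4, 4 in B RPF, 2 in B TE, 4 in BM TE, 16 in BM against M RNA and 2 in RPF at day 10, 67 in TE between the WT days and 1 in the BM difference in RPF. Same-numbered mice of different groups correlated from −0.27 to 0.33 in RNA and −0.215 to 0.301 in RPF, so the numbers were not used as pairs. DESeq2 gave 2 in BM TE at day 4, 3 in B RPF, 1 in BM TE and 4 in BM against M RPF at day 10. Without a filter there were 1 in B RNA, 2 in B RPF and 16 in BM against M RNA at day 10, 1 in RNA between the WT days, and 17 in RNA and 1 in RPF for the BM difference. The cause of these shifts was not tested. Leaving out 1 mouse gave, for RNA, RPF and TE in turn, 0 to 3, 0 to 1 and 0 to 0 in B at day 4, 76 to 78, 68 to 76 and 0 to 4 in M, 75 to 80, 74 to 77 and 0 to 1 in BM. At day 10 it gave 0 to 3, 0 to 37 and 0 to 0 in B, 72 to 77, 0 to 39 and 0 to 73 in M, and 77 to 82, 25 to 63 and 0 to 67 in BM. Between the WT days it gave 0 to 0, 49 to 64 and 0 to 44. For BM against M it gave 2 to 12, 16 to 37 and 0 to 0 at day 4 and 6 to 57, 0 to 74 and 0 to 50 at day 10, where 74 and 50 come from leaving out M mouse 3 and BM mouse 1 together, a choice made after seeing the data and by the value compared. For the differences between days it gave 0 to 2, 0 to 15 and 0 to 0 in B, 0 to 0, 0 to 75 and 0 to 52 in M, and 14 to 51, 0 to 53 and 0 to 62 in BM. Of 599 alternatives for 45 changes of named genes, 528 kept direction and call, 71 kept the direction and lost the call, and 0 reversed. These 45 were the largest calls of the main fits and the alternatives reuse most of the same mice, so reversals were unlikely from the start. Of the counts of called members, 207 stayed within 1.5 times and 33 did not under other processing. With mice left out, 199 stayed and 74 did not. Depth limits Rpl3l, Rpl39l and Rpl10l most.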
